A study of Rattus norvegicus with 6 samples.

Results

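The complement component genes measured here are C1qa, C1qb, C1qc, C1s, C4a, C3, Cfb, Cfd and Serping1, that is 9 of the 33294 gene symbols counted in the pituitary gland of adult male rats. They were read by symbol from the count tables, and all 9 had enough reads to be tested among 17292 genes. They were chosen with earlier results of these data known, and C4a was chosen because its difference between the groups grew when one nicotine library was left out. The values of C4a in this contrast, and its low level in the other two nicotine libraries, are therefore given as a description with no test. The libraries came from pituitary RNA of 3 males born to dams that carried a subcutaneous osmotic pump with nicotine tartrate (6 mg/kg/day) during pregnancy, and of 3 males whose dams had a pump with sterile saline. All were Sprague-Dawley rats, an outbred strain, killed at 11 weeks of age, and those of the nicotine group were exposed through the mother. The dam and litter of each rat are not given in the sources used here, and littermates within a group would make the p-values too small.

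Complement is a cascade of proteins that marks particles and cells for removal. In the classical pathway C1q, built from the chains encoded by C1qa, C1qb and C1qc, recognises a target and carries the proteases C1r and C1s, which cleave C4 and C2. In the alternative pathway factor D (Cfd) cleaves factor B (Cfb) on deposited C3b, and both routes meet at C3, the central component. C1 inhibitor, encoded by Serping1, blocks C1r and C1s. The liver makes most circulating complement, while within tissues macrophages and microglia are the known source of C1q and many stromal cells make C1s, C1r, C3, C4 and C1 inhibitor.

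RefSeq holds C4a and C4b as separate rat genes on chromosome 20, both encoding complement C4. Their promoter windows are shown first, as a view of how alike the copies are around the start. Each window runs from 250 bases before to 50 bases after the gene's start (RefSeq, build GRCr8), and capitals mark bases that differ from, or have no partner in, the other window.
C4a chr20:4010107-4010406, strand +: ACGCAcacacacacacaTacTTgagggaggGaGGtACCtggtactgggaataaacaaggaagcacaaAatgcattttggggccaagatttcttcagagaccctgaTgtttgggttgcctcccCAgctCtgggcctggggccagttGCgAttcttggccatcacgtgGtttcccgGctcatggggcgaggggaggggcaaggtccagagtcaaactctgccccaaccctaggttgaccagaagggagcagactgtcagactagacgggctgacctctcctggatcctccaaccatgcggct
C4b chr20:4201729-4202028, strand +: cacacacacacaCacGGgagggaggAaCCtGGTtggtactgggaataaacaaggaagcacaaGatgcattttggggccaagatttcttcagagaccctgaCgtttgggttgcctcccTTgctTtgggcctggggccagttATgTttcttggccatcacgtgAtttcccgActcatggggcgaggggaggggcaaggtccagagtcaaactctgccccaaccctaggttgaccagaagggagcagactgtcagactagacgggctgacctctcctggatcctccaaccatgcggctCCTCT
Of 295 aligned bases, 276 (93.6%) were identical, with an identical run of 125 bases at the start site end. The 250 bases before the start lie outside the transcript, and the transcripts themselves were not compared. How many reads fit both copies is therefore not known here. Such reads can be assigned to either or dropped, so the separate C4a and C4b levels below are uncertain.

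Promoters of C1qa, C1qb and C3 are shown because they held a match to a motif searched for here, with the match in capitals.
C1qa chr5:154419884-154420183, strand -: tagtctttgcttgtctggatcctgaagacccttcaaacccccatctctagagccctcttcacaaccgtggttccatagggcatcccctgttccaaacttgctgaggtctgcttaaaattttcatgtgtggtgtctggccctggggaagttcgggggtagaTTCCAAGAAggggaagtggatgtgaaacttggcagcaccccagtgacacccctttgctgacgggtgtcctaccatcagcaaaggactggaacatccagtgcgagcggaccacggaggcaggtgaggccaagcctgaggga
C1qb chr5:154407778-154408077, strand -: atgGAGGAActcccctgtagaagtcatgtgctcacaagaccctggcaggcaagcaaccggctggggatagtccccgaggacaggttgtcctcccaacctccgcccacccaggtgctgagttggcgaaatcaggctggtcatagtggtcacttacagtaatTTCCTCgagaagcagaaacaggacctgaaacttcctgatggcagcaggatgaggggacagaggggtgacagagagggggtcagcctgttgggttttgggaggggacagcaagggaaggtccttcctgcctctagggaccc
C3 chr9:2201290-2201589, strand -: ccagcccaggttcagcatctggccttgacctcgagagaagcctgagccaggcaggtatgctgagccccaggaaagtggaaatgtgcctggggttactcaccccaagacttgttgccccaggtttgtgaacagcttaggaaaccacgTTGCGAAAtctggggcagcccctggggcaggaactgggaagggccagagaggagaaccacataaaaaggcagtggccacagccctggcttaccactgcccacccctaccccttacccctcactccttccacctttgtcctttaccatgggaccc
The capitals in the C1qa window match the interferon gamma-activated site, TTCNNNGAA, which 8.87% of 33469 promoters of this length held. Both matches in the C1qb window are to GAGGAA, a core of the sites of the macrophage factor PU.1, which 27.6% of promoters held. The C3 match is to TTGCNNAA, a C/EBP site core, which 10.6% of promoters held. The interferon-stimulated response element (GAAA, NN and GAAA in a row), held by 3.92% of promoters, was in none of the members' windows. Both strands were searched, and no 2 matches overlapped. Windows were at hand for 5 of the 9 members, and those of C4a and Cfd held none of these 4 motifs. The C4b window held 1 match to GAGGAA.

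Total counts ran from 28318383 to 85977002 per library and 20658 to 22120 symbols were detected in each, and the median total of the nicotine libraries was 1.70 times that of the controls. The pituitary hormone genes Gh1, Prl and Pomc had mean levels of 74887, 31001 and 41194 CPM, so the tissue carried its defining markers. Nicotine replicate 2 stood somewhat apart, with a mean distance to the other libraries of 90.8 against 72.0 to 80.7 for the rest (Euclidean distance of log2 CPM over the genes tested). Levels below are CPM, the reads of a gene relative to the TMM-scaled total of its library, and a gene was called when its Benjamini-Hochberg adjusted p was below 0.1 and its level changed by more than 1.5-fold. CPM is not corrected for transcript length, so levels were compared between libraries and not between genes.

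All 9 complement component genes had a lower mean level in the nicotine group, and none was called. The same direction was seen in 49% of all genes tested. The median log2 fold change of the 9, nicotine over control, was -0.53, against 0.0070 over all genes, and the members ranged from -1.17 for Cfd to -0.17 for Serping1. Calls by edgeR's quasi-likelihood test numbered 0 of 9, where the same test called 0% of all genes. At an unadjusted p under 0.05 there were 2 members, C1s and Cfd, where 6.14% of all genes passed. DESeq2 called 0 members and 0.347% of all genes, and limma voom called 0 members. Groups did not overlap for 1 member, Cfd, with the nicotine libraries below, as was so for 5.14% of all genes, while 6.12% had them above and 11.3% did not overlap in either direction. Fewer cells of a type and less RNA per cell cannot be told apart in whole tissue.

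**Figure D1:**
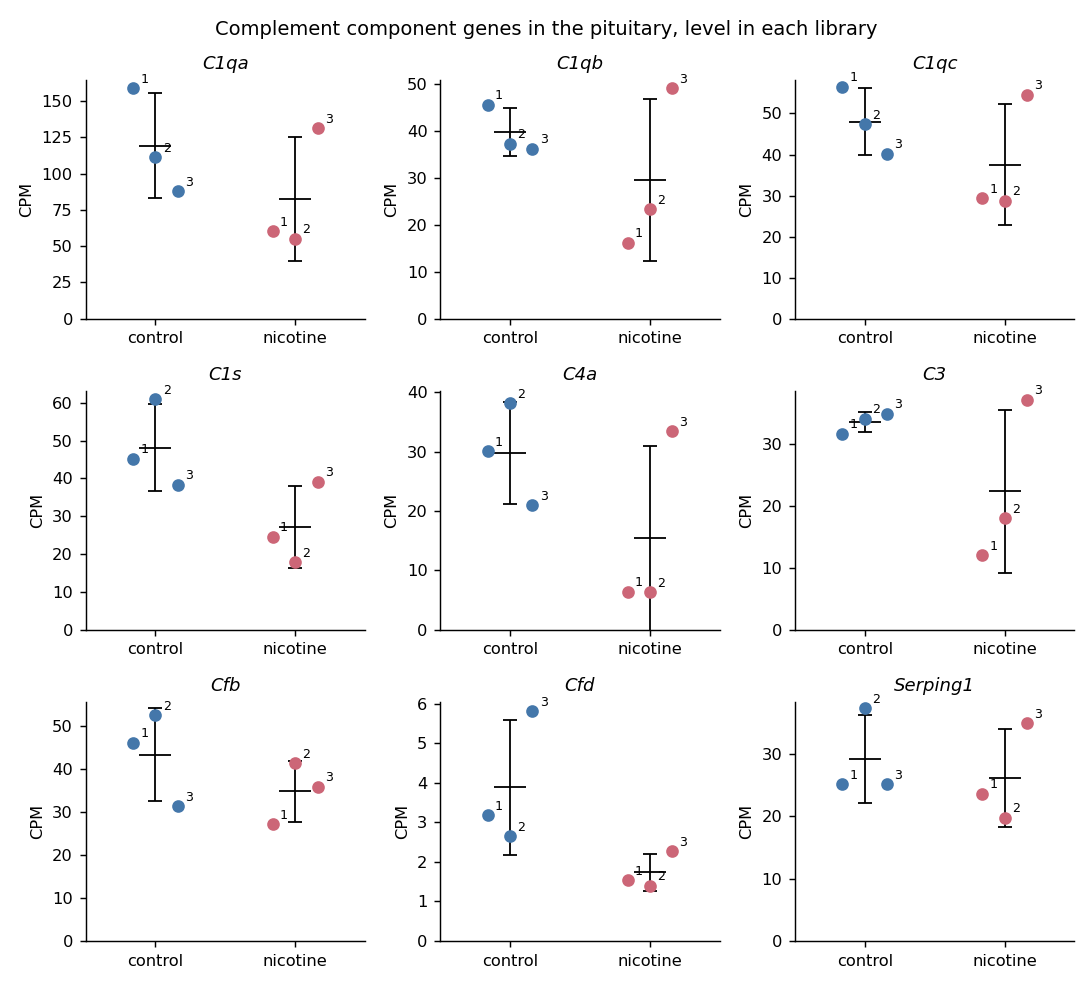
Level of each complement component gene in CPM (linear axis from 0) in the 3 control and 3 nicotine libraries; points are libraries labelled by replicate number, the dash is the group mean and the bar 1 SD, cut at 0 for C4a in the nicotine group. Nicotine replicates 1 and 2 are the 2 lowest libraries for every gene but Cfb, and nicotine replicate 3 lies within or above the control range for every gene but Cfd.

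Most of the members were low in the same libraries. Nicotine replicates 1 and 2 were the 2 lowest of the 6 libraries for 8 of 9 members, all but Cfb, an arrangement seen in 8.42% of all genes tested. C4a is among the 8 through the choice of members, and the genes share the same libraries, so the 8 are not independent of each other. Nicotine replicate 3 fell within the control range for 6 members, above every control for C1qb and C3, and below every control for Cfd.

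The C1q chains, which form the recognition molecule of the classical pathway, were examined first. C1qa stood at 60.4, 55.2 and 131 CPM in nicotine replicates 1 to 3 and at 159, 111 and 87.7 CPM in control replicates 1 to 3. Nicotine replicate 3 lay inside the control range and the other two nicotine libraries below it, so that the groups overlapped. The group means were 82.3 ± 42.6 and 119 ± 36.1 CPM (SD, n = 3 each), and on the log2 scale nicotine over control was -0.53 (SE 0.32, 95% interval -1.24 to 0.18, edgeR adjusted p = 0.827).

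C1qb stood at 16.2, 23.4 and 49.2 CPM in the nicotine libraries and at 45.6, 37.3 and 36.3 CPM in the controls. The highest library of all was nicotine replicate 3, and the lowest were the other two of that group. Its log2 fold change was -0.42 (SE 0.33, 95% interval -1.15 to 0.30, edgeR adjusted p = 0.841). C1qc stood at 29.3, 28.7 and 54.6 CPM against 56.5, 47.3 and 40.2 CPM, the same order of libraries as C1qa. Its log2 fold change was -0.35 (SE 0.25, 95% interval -0.91 to 0.20, edgeR adjusted p = 0.832). For each of the chains the interval spanned 0.

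Across libraries the chains moved together, and C1qa and C1qc had a Pearson r of 0.99 over 6 libraries in log2 CPM (description only, the same libraries being shared). The ratio of C1qa to C1qb counts was 3.73, 2.36 and 2.67 in the nicotine libraries against 3.48, 2.98 and 2.41 in control replicates 1 to 3. That of C1qc to C1qb was 1.81, 1.23 and 1.11 against 1.24, 1.27 and 1.11. Neither ratio separated the groups. The ratios are of read counts and say nothing of the numbers of molecules, since transcript length was not used.

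C1s, the protease that cleaves C4 and C2, differed most of the classical pathway members that were tested. It stood at 24.6, 17.8 and 39.1 CPM in the nicotine libraries and at 45.2, 60.9 and 38.3 CPM in the controls. Nicotine replicate 3 was just above the lowest control, which was the only overlap. The means were 27.2 ± 10.9 and 48.1 ± 11.6 CPM (SD, n = 3 each), and on the log2 scale nicotine over control was -0.83 (SE 0.27, 95% interval -1.43 to -0.22), with an unadjusted p of 0.0118 and an adjusted p of 0.760 by edgeR's quasi-likelihood test. By DESeq2 the adjusted p was 0.308.

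C1r, the partner protease of C1s, differed little in mean between the groups, and its lowest library was control replicate 3. It stood at 27.5, 31.8 and 45.6 CPM against 37.9, 46.2 and 25.9 CPM, with a log2 fold change of -0.069 (SE 0.24, edgeR adjusted p = 0.966). This estimate had no fixed direction, and came to 0.13 when control replicate 2 was dropped and to -0.31 when nicotine replicate 3 was. The ratio of C1s to C1r counts was 0.896, 0.560 and 0.857 in the nicotine libraries against 1.19, 1.32 and 1.48 in control replicates 1 to 3, so each nicotine library lay below each control. This ratio was computed after the values were seen and has no test, and with 3 against 3 an exact permutation test cannot give a p under 0.1. Every other ratio of counts computed here overlapped between the groups, C1qa to C1qc and Cfb to C2 among them. In the levels of single genes, 11.3% did not overlap in either direction.

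C4a, which encodes the component cleaved by C1s, is described without a test. It stood at 6.43, 6.35 and 33.4 CPM in the nicotine libraries (303, 585 and 2022 reads) and at 30.1, 38.1 and 21.0 CPM in the controls (814, 2016 and 794 reads). Nicotine replicates 1 and 2 were nearly equal and far below the others, while nicotine replicate 3 was the second highest library. The means were 15.4 ± 15.6 and 29.7 ± 8.58 CPM (SD, n = 3 each), so that the SD of the nicotine group was as large as its mean, and the log2 fold change was -0.95 with all libraries. Leaving out nicotine replicate 3, the step by which the gene was noticed, gave -2.22, and leaving out nicotine replicate 2 gave -0.58.

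The highest C4a level was 6.00 times the lowest, a spread reached by 4.07% of all genes tested. The spread was next largest in Cfd, at 4.15 times, reached by 7.85% of genes, and smallest in Serping1, at 1.89 times, reached by 39% of genes. Of the low C4a libraries, nicotine replicate 2 had the largest total of the 6, 85977002, and nicotine replicate 1 had 46239801, the third lowest.

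C4b was low throughout, at 0.446, 0.347 and 0.545 CPM in the nicotine libraries and 0.812, 3.03 and 0.502 CPM in the controls. Control replicate 2 had 160 reads and the other libraries 19 to 33. Its log2 fold change was -1.83 (SE 0.60, edgeR adjusted p = 0.760) and became -0.55 without control replicate 2. In that library the summed level of the hepatocyte list was 5.58 CPM, of which Alb, with Apoa1 the most abundant of the list, gave 2.82 CPM, against at most 0.413 CPM in any other, and its part in the result was not tested. The ratio of C4a to C4b reads was 14.4, 18.3 and 61.3 in the nicotine libraries against 37, 12.6 and 41.8 in control replicates 1 to 3. The groups overlapped in this ratio. C4b had 21 and 32 reads in nicotine replicates 1 and 2, the low C4a libraries. It had 33 and 19 reads in nicotine replicate 3 and control replicate 3, where C4a was higher. With so few reads, C4b showed no drop particular to the low C4a libraries. Reads that fit both copies may have been dropped from both counts. The part of read assignment in the low C4a was not tested.

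C4a lies in the class III part of the major histocompatibility complex, beside C2 and Cfb. Within 100 kb of it RefSeq (GRCr8, used here for gene order only) places 18 genes, of which 14 were tested and 0 called, with 0 at an unadjusted p under 0.05 by edgeR. Their log2 fold changes ran from -0.32 for Cfb to 0.26, with a median of 0.11, and 9 of the 14 were higher in the nicotine group. Nicotine replicates 1 and 2 were the lowest libraries for 2 of the 14, Stk19 and Tnxa-ps1, where 8.42% of all genes had this order. Tnxa-ps1 stood at 0.912, 0.684 and 2.53 CPM in the nicotine libraries and 1.48, 1.65 and 1.35 CPM in the controls. Groups did not overlap for 2 of the 14, where 11.3% of all genes did not overlap in either direction, so nothing is read from this count. Stk19 had nicotine below, at 14.0, 11.6 and 14.7 CPM against 16.6, 15.6 and 16.1 CPM, and Zbtb12 had nicotine above, at 10.1, 9.05 and 8.61 CPM against 7.53, 7.77 and 8.32 CPM.

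C2, which C1s cleaves after C4, stood at 27.3, 37.7 and 41.5 CPM in the nicotine libraries and 32.6, 40.5 and 43.7 CPM in the controls. The libraries were interleaved, and the log2 fold change was -0.13 (SE 0.19, edgeR adjusted p = 0.901), turning to 0.023 without nicotine replicate 1.

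C3, at which the pathways meet, stood at 11.99, 17.97 and 37.1 CPM in the nicotine libraries and at 31.6, 34.05 and 34.8 CPM in the controls. The controls lay close together, whereas the nicotine libraries lay on both sides of them, with replicate 3 the highest of all 6. The means were 22.4 ± 13.1 and 33.5 ± 1.65 CPM (SD, n = 3 each), and on the log2 scale nicotine over control was -0.58 (SE 0.33, 95% interval -1.30 to 0.14, edgeR adjusted p = 0.821). Dropping nicotine replicate 3 gave -1.16, and dropping nicotine replicate 1 gave -0.28.

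Factor B and factor D, the proteases of the alternative pathway, behaved differently from each other. Cfb stood at 27.1, 41.2 and 35.8 CPM in the nicotine libraries and 46.0, 52.4 and 31.2 CPM in the controls. It was the member whose low libraries were not nicotine replicates 1 and 2, and its Pearson r with the other members over 6 libraries ran only from 0.037 with Cfd to 0.53 with C4a. Its log2 fold change was -0.32 (SE 0.22, 95% interval -0.80 to 0.17, edgeR adjusted p = 0.832).

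Cfd stood at 1.53, 1.40 and 2.26 CPM in the nicotine libraries (72, 129 and 137 reads) and at 3.18, 2.65 and 5.81 CPM in the controls (86, 140 and 220 reads). Every nicotine library lay below every control. The means were 1.73 ± 0.466 and 3.88 ± 1.69 CPM (SD, n = 3 each), and on the log2 scale nicotine over control was -1.17 (SE 0.35, 95% interval -1.94 to -0.40), with an unadjusted p of 0.00665 and an adjusted p of 0.760 by edgeR's quasi-likelihood test. By DESeq2 the adjusted p was 0.170. Control replicate 3 carried much of the difference, which was -0.74 without it. Adipocytes are the known main source of factor D, so a list of 7 adipocyte genes, added after the Cfd values were seen, was set beside it. Its summed level was 15.5, 11.2 and 12.5 CPM in the nicotine libraries and 12.4, 15.4 and 17.9 CPM in the controls. Most of it came from Adipoq (mean 10.5 CPM) and Fabp4 (mean 3.33 CPM). Adipoq stood at 10.3, 8.38 and 9.81 CPM in the nicotine libraries and at 11.7, 12.2 and 10.8 CPM in the controls. Each nicotine library thus lay below each control, as for 5.14% of all genes. Its log2 fold change was -0.29 (SE 0.19, edgeR adjusted p = 0.830). The groups overlapped for Fabp4. Plin1, Plin4, Cidec and Lep, which code for lipid droplet proteins and leptin, were near 0, with mean levels of 0.027, 0.022, 0.018 and 0.0095 CPM, and Pparg had a mean of 0.211 CPM. The part of fat cells in the Cfd level was not tested.

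Serping1, encoding the inhibitor of C1r and C1s, differed least. It stood at 23.6, 19.8 and 34.9 CPM in the nicotine libraries and at 25.1, 37.4 and 25.2 CPM in the controls, and the groups overlapped. The log2 fold change was -0.17 (SE 0.24, 95% interval -0.70 to 0.36, edgeR adjusted p = 0.901), and its sign turned, to 0.051, without control replicate 2.

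**Figure D2:**
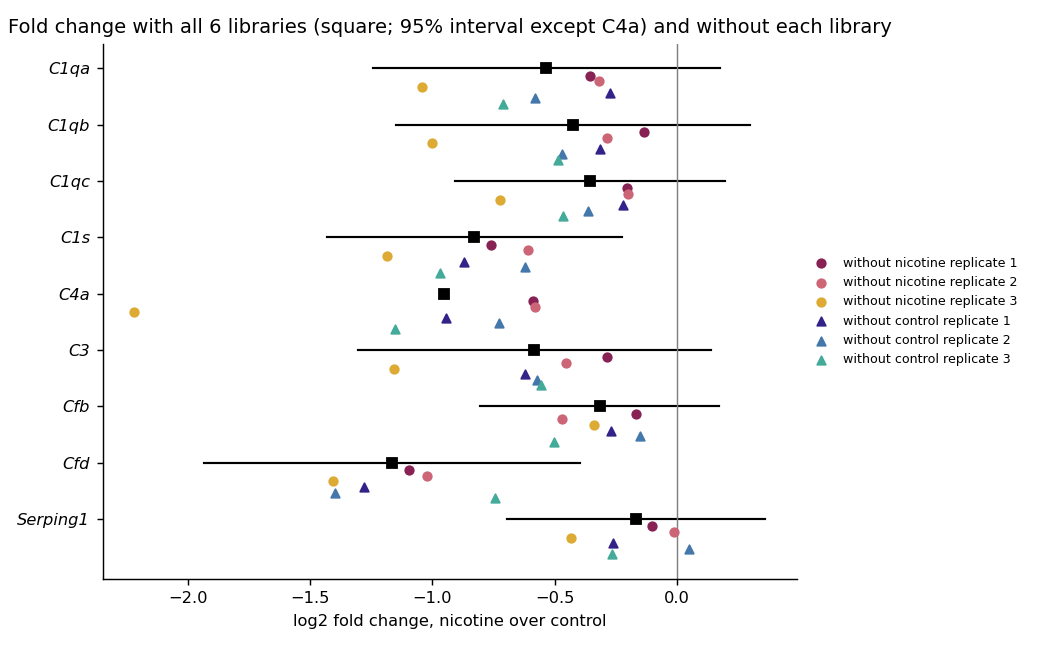
Log2 fold change of each complement component gene, nicotine over control (horizontal axis), with all 6 libraries (square, with its 95% interval except for C4a, which has no test) and with each library left out in turn (coloured circles for nicotine libraries, triangles for controls). Without nicotine replicate 3 the value moves furthest below 0 for 8 of 9 genes, C4a reaching -2.22, and Serping1 crosses 0 without control replicate 2.

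Leaving out a library therefore moved most members by a large part of their difference. Dropping nicotine replicate 3 took the median of the 9 to -1.04, and dropping nicotine replicate 1 took it to -0.28. By edgeR without nicotine replicate 3, C4a was the 1 member called among 9 genes (0.0517% of those tested), which is the contrast that chose it. With DESeq2 and the same library left out, the calls held 6 members, C1qa, C1qb, C1s, C4a, C3 and Cfd, where 1.05% of all genes were called. Since the members were noticed in this contrast, nothing is read from these calls. No member was called by either tool when any other library was left out. Leaving out nicotine replicates 1 and 2 and control replicates 1, 2 and 3 in turn, edgeR called 0%, 0.00572%, 0%, 0.023% and 0% of genes, and DESeq2 0.562%, 0.743%, 0.483%, 0.342% and 0.248%.

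The rest of the cascade was followed in 41 further complement genes, of which 40 were in the files and 30 were tested, while Mbl1 and C8a had no read in any library. Of the 30, 25 had a lower and 5 a higher mean in the nicotine group, with a median log2 fold change of -0.33 and a range from -1.92 to 0.41. None was called by edgeR, DESeq2 or limma voom, and 5 had an unadjusted p under 0.05 by edgeR: C4b, Fcnb, C6, C7 and Itgam, where 6.14% of all genes had one. Groups did not overlap for 3, C7, C5ar2 and Itgam, each with nicotine below, as for 5.14% of all genes.

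In the lectin pathway, which starts from sugars on a surface, 4 of 8 genes were tested. The collectin Colec11 stood at a mean of 33.6 CPM over all libraries with a log2 fold change of -0.38 (SE 0.25), and the protease Masp1 at 3.15 CPM with 0.059 (SE 0.26). Fcnb, a ficolin, stood at 0.276, 0.434 and 0.215 CPM in the nicotine libraries and at 2.14, 0.227 and 1.24 CPM in the controls, a log2 fold change of -1.76 (SE 0.67, edgeR adjusted p = 0.788). It was high in control replicates 1 and 3 only, and the summed level of the neutrophil list, led by S100a9 and Lcn2, was 159 and 115 CPM in these and 22.6 to 45.8 CPM in the other four libraries. The part of neutrophils in the Fcnb result was not tested. Cfp, the stabiliser of the alternative pathway convertase, stood at 6.51, 5.32 and 10.05 CPM against 11.2, 9.99 and 10.6 CPM, a log2 fold change of -0.54 (SE 0.25, edgeR adjusted p = 0.807), and nicotine replicate 3 was the sole library of its group to reach the controls.

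Of the terminal pathway, whose products form the membrane attack complex, 4 of 7 genes were tested and all 4 were lower in mean. C7 stood at 51.1, 32.5 and 53.0 CPM in the nicotine libraries and at 72.3, 77.1 and 57.6 CPM in the controls, with no overlap. Its log2 fold change was -0.60 (SE 0.21, edgeR adjusted p = 0.760). C6 stood at 0.318, 0.315 and 0.413 CPM against 0.665, 2.57 and 0.396 CPM, and its log2 fold change of -1.92 (SE 0.62, edgeR adjusted p = 0.760) became -0.57 without control replicate 2, the library that was also high for C4b. C8g had a log2 fold change of -0.080 (SE 0.26).

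The soluble regulators held Clu, encoding clusterin, at a mean of 1636 CPM and a log2 fold change of 0.057 (SE 0.25). The membrane regulator Cd59 had a log2 fold change of -0.19 (SE 0.22) and Cr1l one of -0.046 (SE 0.18). Of the 8 receptor genes tested 7 were lower in mean, and 1, Cd93, was higher, at 0.41 (SE 0.26). Itgb2, the shared chain of the complement receptors CR3 and CR4, had a log2 fold change of -0.51 (SE 0.32). Itgam, the alpha chain of CR3, which binds fragments of C3, stood at 1.70, 3.01 and 7.48 CPM in the nicotine libraries and at 7.61, 7.64 and 8.53 CPM in the controls. Its groups just failed to overlap, and its log2 fold change was -0.96 (SE 0.42, edgeR adjusted p = 0.806), from -1.72 to -0.61 with 1 library left out.

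**Figure D3:**
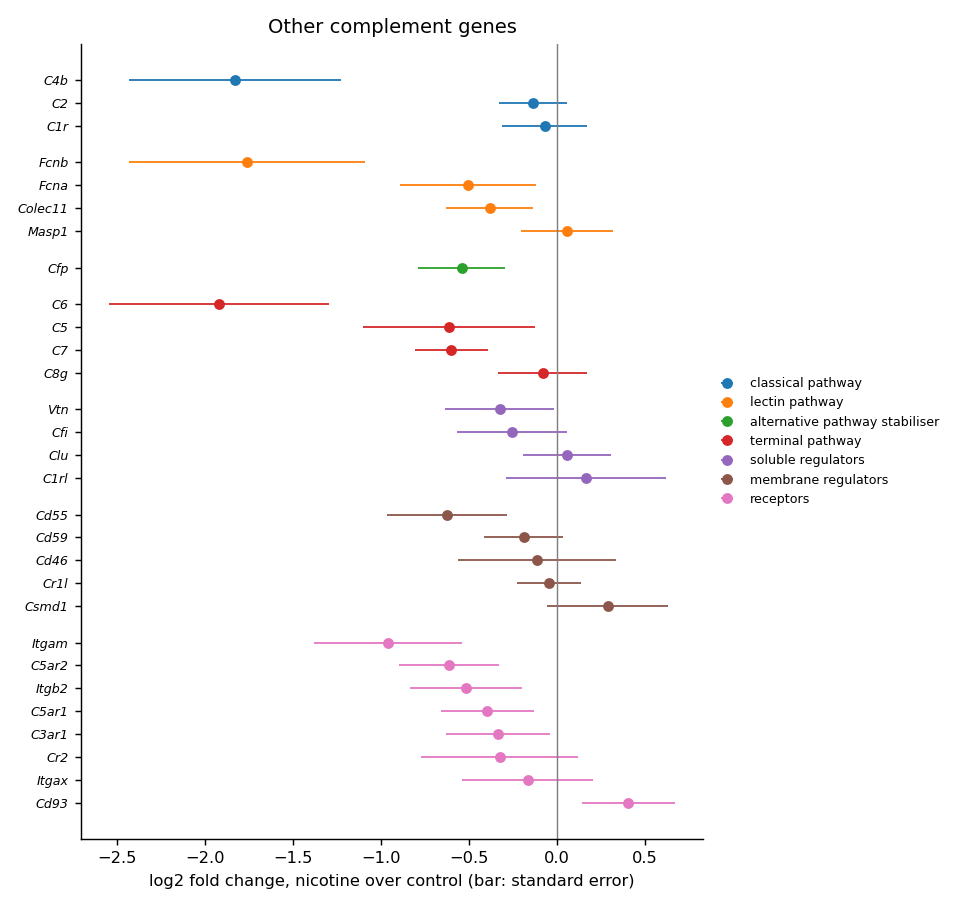
Log2 fold change, nicotine over control, of 29 of the other complement genes tested, grouped by role (colours), with the standard error as the bar. Of these 24 lie below 0 and 5 above, and the lowest, C6, C4b and Fcnb, have the longest bars.

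Genes with a library pattern like that of a member were sought among 14505 genes with a mean of at least 1 CPM, by Pearson r of log2 CPM over the 6 libraries. Nearest to C4a were Tlr7 (r 0.996), Hpgds (0.993), P2ry12 (0.982), Arse (0.978) and Myo15b (0.972). Tlr7 is an endosomal receptor for single-stranded RNA and P2ry12 a purine receptor known from microglia. P2ry12 stood at 3.44, 4.24 and 11.3 CPM in the nicotine libraries and 12.2, 11.5 and 7.90 CPM in the controls. Nearest to C3 were Csf1r (0.998), Itgam (0.991), Pld4 (0.990), Slc8b1 (0.987) and Myo1f (0.984). Csf1r, the receptor on which macrophages depend, stood at 22.6, 29.1 and 47.2 CPM against 44.6, 44.5 and 45.6 CPM, low in the same 2 nicotine libraries. Nearest to C1qa were C1qc (0.992), Trub2 (0.987), Gpr34 (0.985), Map7d3 (0.983) and Ahr (0.979). How often such values of r arise among this many genes was not tested, and the points are the same 6 libraries throughout.

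**Figure D4:**
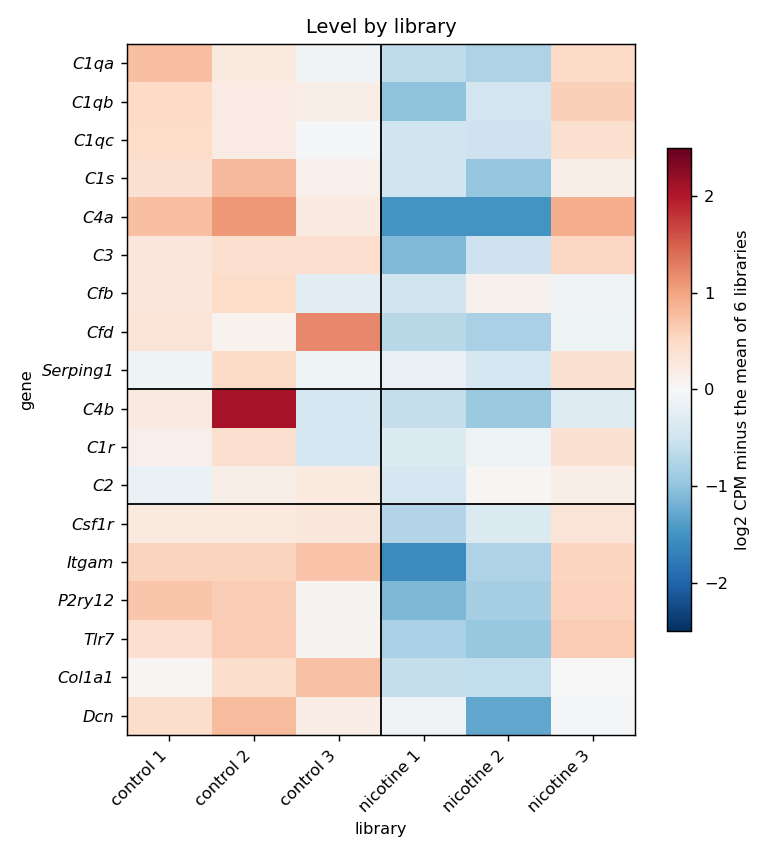
Log2 CPM minus the mean of the 6 libraries (colour scale), in control and nicotine libraries. The complement component genes form the top block, and C4b, C1r and C2 the middle. The bottom block holds Csf1r, Itgam, P2ry12 and Tlr7 with the fibroblast genes Col1a1 and Dcn. Csf1r and Itgam were picked for their likeness to C3, and P2ry12 and Tlr7 for theirs to C4a. The pattern they share with those members therefore follows from the choice. Nicotine replicates 1 and 2 are blue across most of the upper rows, nicotine replicate 3 resembles the controls, and C4b stands out in control replicate 2.

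Markers of the cell types that could make these proteins were set beside them. The 14 macrophage markers had a summed level of 490, 331 and 532 CPM in the nicotine libraries and 614, 558 and 562 CPM in the controls, Lyz2 and Ctss being the most abundant. Of the 14, 13 were lower in mean in the nicotine group, with a median log2 fold change of -0.44 and 0 called by edgeR (3 at an unadjusted p under 0.05, 0 by DESeq2). The 10 fibroblast and meningeal markers, led by Dcn and Mgp, summed to 592, 412 and 805 CPM against 787, 1061 and 824 CPM, with 8 lower, a median of -0.65 and 0 called by edgeR (6 at an unadjusted p under 0.05, 0 by DESeq2). Both sums were lowest in nicotine replicates 2 and 1, the libraries in which most of the members were low. The 10 endothelial markers, led by Plvap and Kdr, summed to 306, 228 and 375 CPM against 200, 252 and 185 CPM, and all 10 were higher in mean in the nicotine group, with 0 called by edgeR (6 at an unadjusted p under 0.05, 0 by DESeq2). Of all genes, 6.14% had an unadjusted p under 0.05 by edgeR. Nicotine lay below without overlap for 1 macrophage and 4 fibroblast and meningeal markers, as for 5.14% of all genes. It lay above without overlap for 5 endothelial markers, as for 6.12% of all genes. The part of cell makeup in the members' levels was not tested.

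Both response lists were read in the same way. The 15 interferon response genes, among which Ifi27 was the most abundant, had 12 lower in mean with a median log2 fold change of -0.23, and 0 passed an unadjusted p of 0.05 by edgeR. In the list of 15 interleukin-6 and acute phase genes 12 were tested, with a median of 0.090, and Il6st and Stat3 were the most abundant. The 1 call in that list, by DESeq2, which called 0.347% of all genes, was Hp, encoding haptoglobin. Its log2 fold change was -1.66 by edgeR (SE 0.31, adjusted p = 0.492) and -1.67 by DESeq2 (adjusted p = 0.00111). Hp stood at 0.785, 1.14 and 1.17 CPM in the nicotine libraries and at 3.80, 2.33 and 3.91 CPM in the controls. The groups did not overlap, with nicotine below, as for 5.14% of all genes.

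In all, 36 relations between a member and a list level (mean log2 CPM of its genes) were computed over the 6 libraries, with exact two-sided permutation tests adjusted over the 36. C1s and the fibroblast and meningeal list had r 0.94 (exact p = 0.00833, adjusted 0.09) and rho 0.77 (exact p = 0.103, adjusted 0.306). Serping1 and the same list had r 0.86 (exact p = 0.0125, adjusted 0.09) and rho 0.94 (exact p = 0.0167, adjusted 0.12). Without nicotine replicate 2 and control replicate 2, the libraries farthest from the median of that list, r was 0.76 for C1s and 0.62 for Serping1. C1s and the interferon list had r 0.93 (exact p = 0.0111, adjusted 0.09) and rho 0.94 (exact p = 0.0167, adjusted 0.12), and r 0.66 without nicotine replicate 2 and control replicate 2. Serping1 and the interferon list had r 0.93 (exact p = 0.00278, adjusted 0.09) and rho 0.94 (exact p = 0.0167, adjusted 0.12), and r 0.82 without the same 2 libraries. The fibroblast and meningeal level and the interferon level were both lowest in nicotine replicate 2 (4.38 and 3.97). Both were highest in control replicate 2 (5.71 and 4.73). Relations with these lists therefore cannot be told apart in 6 libraries. For the macrophage list r ran from 0.14 with Cfb to 0.92 with C1s, but without nicotine replicates 1 and 2 it ran from -0.82 to 0.73. The value for C3 hardly moved (0.78 to 0.73) and that for Serping1 went from 0.78 to 0.54, while those for the other members, Cfb aside, fell to between -0.82 and 0.11 and so rested on those 2 libraries. C4a fell into separate low and high libraries, and no relation is given for it. Its pairs are still among the 36. The adjusted p-values of the other members therefore rest in part on a gene chosen from these data. The relations were not tested within groups.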

How the data were processed

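The authors made strand-specific libraries from 1 pituitary RNA sample per rat, sequenced paired ends, and per the labels used bcl2fastq 2.20.0.422, HISAT2 2.1.0 (build rn7), featureCounts and DESeq2 2.11.40.7. The deposited values are raw read counts per gene symbol, 1 table per library. The strand and multiple-mapping settings of the counting are not given in the sources used here. The extraction text in the labels describes testis, while tissue and title say pituitary.

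Here the counts were fitted with edgeR 4.0.16 (R 4.3.3): TMM scaling, filterByExpr, quasi-likelihood test over all 6 libraries without covariates, Benjamini-Hochberg adjustment over 17292 genes. CPM used TMM-scaled totals, and log2 CPM for likeness and lists a prior count of 2. Scripts were tested on simulated data. Alternatives were DESeq2 1.42.0, limma voom 3.58.1, other scalings and filters, thinning to the smallest library, a replicate block and leaving out each library. DESeq2 with libraries left out and the adipocyte list were added after seeing the data.

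The members and gene lists were chosen with earlier results of these data known. Named genes are the 9 members, C1r, C2 and C4b, the 2 most abundant tested genes of each other complement role and each marker or response list set beside a result, other complement genes with an unadjusted p under 0.05, and the 5 genes most like C4a, C3 and C1qa. A soluble regulator and an interferon response gene that this rule names are not reported here. Further genes such as C5ar2, Stk19, Zbtb12, Tnxa-ps1, Hp and the adipocyte genes were named after their values were seen. Folliculostellate and pituicyte markers (8, median log2 fold change 0.19, range -0.66 to 1.58) were also measured. So were endocrine markers (10, median 0.30, range -0.70 to 1.83) and lymphocyte markers (7 tested, median -1.09, range -1.37 to -0.71). Single markers of these lists thus differed far more than the medians. Replicate numbers are not known to pair the libraries. Deviations from the group mean in libraries of the same number had correlations of 0.0264, -0.198 and -0.0785, which cannot show whether a pairing existed. With samples from separate rats but unknown dams, p-values measure the spread between these rats.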

Additional observations from a re-analysis of the deposited data

How the results depend on the processing

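The number of genes called between the groups was 0 by edgeR and moved to 62 with DESeq2, 1 with library sizes alone, 2 without a filter on low counts, 1 with limma voom and 2 with the replicate block. By edgeR it ranged from 0 to 9 when 1 library was left out, and it was 89, 120 and 185 by DESeq2 without nicotine replicates 1, 2 and 3 and 88, 57 and 44 without control replicates 1, 2 and 3. No member was called except without nicotine replicate 3, the contrast that chose C4a, by edgeR (1 member) and DESeq2 (6 members). The median log2 fold change of the 9 members ranged from -1.04, without nicotine replicate 3, to -0.28 by edgeR, and was -1.03 by DESeq2 without nicotine replicate 3. The replicate block gave a median of -0.62 and changed no call among the members or the other complement genes. Calls among the other complement genes, 0 in all other settings, were 3 (Cfp and Itgam among them), 1 (Fcnb) and 2 (C4b and C6) by DESeq2 without nicotine replicate 3, control replicate 2 and control replicate 3. Signs turned for Serping1 without control replicate 2 (0.051 by edgeR, 0.059 by DESeq2), for C1r without control replicate 2 (0.13 and 0.14) and without nicotine replicate 1 (0.077 and 0.078), and for C2 without nicotine replicate 1 (0.023 and 0.025). Over all edgeR fits with 1 library left out, Serping1 ranged from -0.43 to 0.051, C1r from -0.31 to 0.13 and C2 from -0.26 to 0.023. The cause was not tested. No scaling moved the median of all genes to more than 0.057 on the log2 scale. C4b, C6 and Fcnb rest on few reads, 12 to 160 per library.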

Other observations

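The lymphocyte markers, led by Cd79b and Cd3g, a list beside which no member was set in the report, summed to 4.29, 4.61 and 3.90 CPM in the nicotine libraries and to 5.43, 6.66 and 15.3 CPM in the controls. All 7 tested had a lower mean in the nicotine group, with 0 called by edgeR or DESeq2. By edgeR 4 had an unadjusted p under 0.05, where 6.14% of all genes had one. Control replicate 3, the library with the highest lymphocyte sum, was also the one with the highest Cfd, at 5.81 CPM. Their part in the Cfd level was not tested.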
